A study of Mus musculus with 1 sample.

Results

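Cells take up fatty acids through a short chain of proteins, and 10 genes of that chain were followed across the cell types of the young mouse pancreas. The 10 genes were Lpl, Gpihbp1, Cd36, Fabp4, Fabp5, Rbp7, Apoe, Plin2, Plin4 and Pparg, matched by symbol among the 32285 genes listed, and all 10 were found. The sample was a pool of 5 to 6 pancreata of 2 week old Scap f/f mice, males and females in equal number, profiled as 1 droplet library with 3' tags and unique molecular identifiers (UMIs). Scap f/f mice carry floxed alleles of Scap, the escort protein of the sterol-regulated SREBP transcription factors, without a Cre recombinase, so the gene is intact in every cell. The animals cannot be told apart within the pool and there was no second library, so intervals cover counting error only and no difference was tested between animals.

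Lipoprotein lipase, the product of Lpl, cuts fatty acids from the triglyceride of circulating lipoproteins. It is secreted by tissue cells and carried to the inner face of the capillary by GPIHBP1, an anchor on endothelial cells. CD36 binds the released fatty acids at the cell surface, the fatty acid binding proteins FABP4 and FABP5 carry them through the cytosol, and RBP7 is a small retinol carrier of the same fold. Apolipoprotein E (Apoe) is a ligand for the uptake of whole lipoprotein particles, perilipins (Plin2, Plin4) coat the stored lipid droplet, and PPARγ (Pparg) is a nuclear receptor that drives many of these genes, above all in adipocytes.

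Promoter sequence is shown for Cd36 and Rbp7, which both had high levels in endothelial-like cells and of which only Cd36 was also high in macrophage-like cells. Both stretches are RefSeq sequence of build GRCm38.p6, given 5′ to 3′ on the strand of the gene, and end before the transcript starts. The Cd36 stretch, chr5:17835897-17836146 on the minus strand, spans the 250 bases before the start and lies inside the Cd36 gene itself, outside its exons, since the annotated gene reaches further upstream. The Rbp7 stretch, chr4:149454979-149455218 on the minus strand, holds 240 bases and overlaps no annotated gene. Capitals mark the motifs that were searched on both strands: AGGTCA (bound by nuclear receptors), AGGAAG (a core bound by ETS factors), CACGTG (the E box), TATAAA (the core promoter element of many tissue-specific genes) and GGGCGG (the GC box).
Cd36: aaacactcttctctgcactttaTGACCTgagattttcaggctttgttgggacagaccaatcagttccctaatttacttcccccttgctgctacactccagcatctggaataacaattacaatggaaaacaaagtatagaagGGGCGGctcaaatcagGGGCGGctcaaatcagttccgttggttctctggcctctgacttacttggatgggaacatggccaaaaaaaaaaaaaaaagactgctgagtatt
Rbp7: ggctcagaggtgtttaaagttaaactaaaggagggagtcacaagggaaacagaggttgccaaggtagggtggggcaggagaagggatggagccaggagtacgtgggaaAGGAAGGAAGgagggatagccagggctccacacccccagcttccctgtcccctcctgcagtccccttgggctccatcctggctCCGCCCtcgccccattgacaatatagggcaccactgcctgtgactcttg
The Cd36 stretch holds AGGTCA on the other strand, read as TGACCT from −228 to −223, and GGGCGG from −109 to −104 and from −93 to −88. The Rbp7 stretch holds AGGAAG from −142 to −137 and, overlapping it, from −138 to −133, and GGGCGG on the other strand from −59 to −54. Such matches are common: of 32851 RefSeq windows of 250 bases, 14.0% hold AGGTCA, 29.5% AGGAAG and 32.7% GGGCGG. Neither stretch holds CACGTG, found in 6.02% of windows, or TATAAA, found in 12.4%.

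The library held 51540177 UMIs in 11789 barcodes, and 10947 barcodes (92.9%) with 49202966 UMIs were kept, with totals between 800 and 100000 UMIs and a mitochondrial share under 15%. Of these, 8905 (81.3%) passed the marker gate of 1 cell class, 1576 (14.4%) passed 2 or more and were set aside as mixed, and 466 (4.26%) passed none. Classes are called by their gate, as in endothelial-like, and 15 of the 19 had at least 20 cells. Fibroblast-like cells were the most numerous with 5527 cells, followed by acinar-like (920), T cell-like (884), red blood cell-like (402), B cell-like (375), mesothelial-like (280) and endothelial-like cells (147). Macrophage-like cells numbered 27 and type 2 lymphoid-like cells 44. Endothelial-like cells made up 1.34% of the retained barcodes and 1.65% of those in 1 class. The median depth was 2716 UMIs in fibroblast-like, 2970 in endothelial-like, 2680 in macrophage-like and 1446 in red blood cell-like cells. Duct-like cells were the deepest class, with a median of 21184.5 UMIs. Of 70 check markers, not used in the gate of their own class, 65 were at least 4-fold higher in that class than in the other gated cells. Krt19, a check marker of mesothelial-like cells, was also a duct gate marker. The gate and check markers of acinar-like cells, mostly genes of digestive enzymes, are counted here as enzyme UMIs. They include Reg1, Zg16 and Rbpjl, which are not enzymes, and leave out other acinar enzymes. The gate markers among them also defined the class. Enzyme UMIs made up 35.4% of the UMIs of acinar-like cells and 3.79% of those of duct-like cells. In the other classes of 20 or more cells they made up 0.505 to 1.27%. The background level printed beside low values is the whole-library level of the gene scaled by the enzyme share of the class, as an estimate of free RNA. It has no meaning for acinar-like and duct-like cells, so no background bears on their low levels. Levels are CPM, the UMIs of the gene per 1000000 UMIs summed over a class, with exact 95% Poisson intervals.

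**Figure D1:**
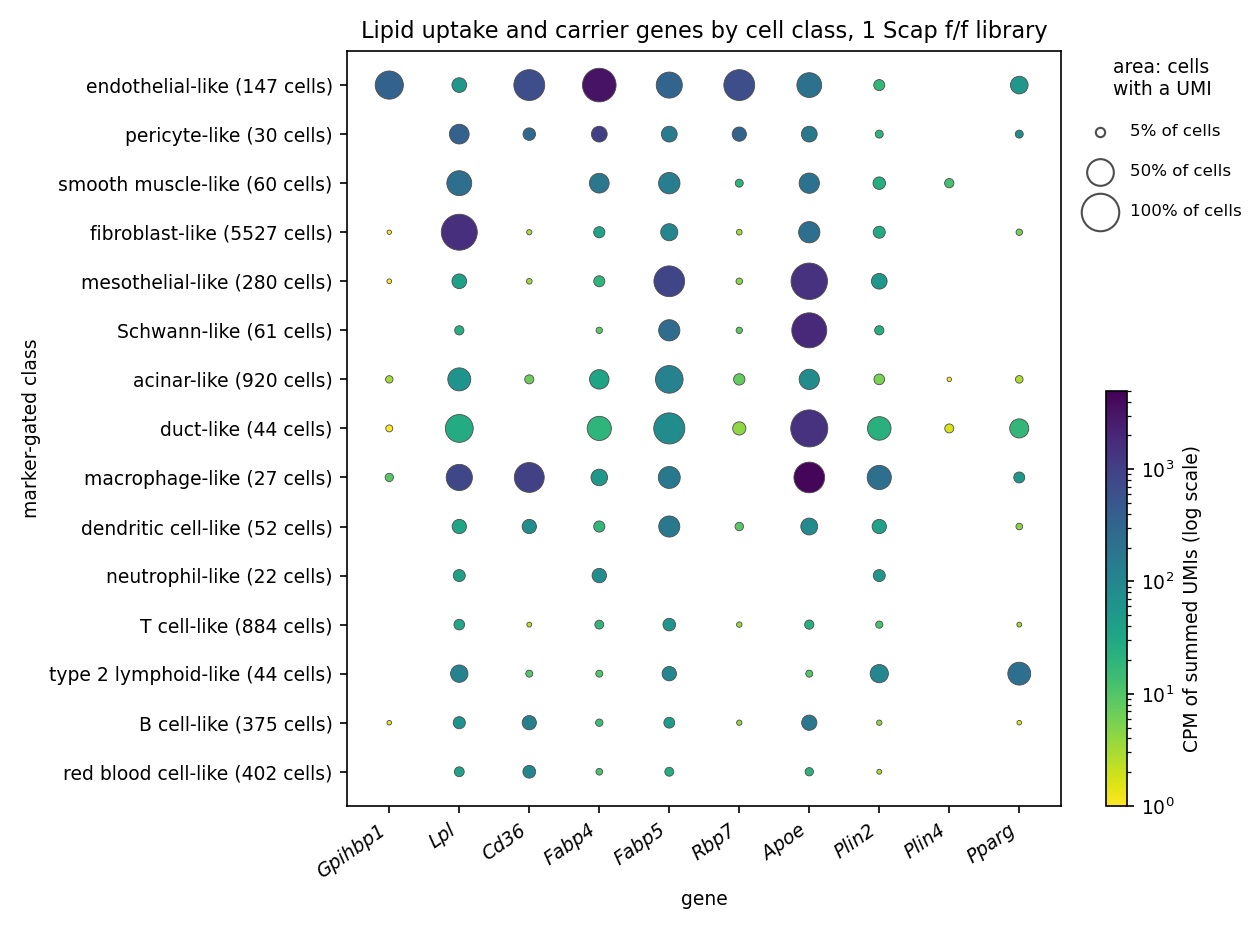
Level of each gene (columns) in each class of 20 or more cells (rows), as CPM of summed UMIs on a logarithmic colour scale, with the area of each circle giving the percent of cells with a UMI. Cd36, Fabp4, Gpihbp1 and Rbp7 share the endothelial-like row, Lpl is highest in the fibroblast-like row at 1603 CPM, Apoe in the macrophage-like row at 4393 CPM and Fabp5 in the mesothelial-like row at 882 CPM.

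The genes led in different classes. Of the 9 genes with at least 30 UMIs in gated cells, 5 were at least 4-fold higher in endothelial-like cells than in the other gated cells (Gpihbp1, Rbp7, Fabp4, Cd36 and Pparg), where 6.41% of the 15330 genes counted passed that limit. In macrophage-like cells 4 passed (Cd36, Apoe, Plin2 and Pparg), against 7.95% of all genes, in mesothelial-like cells 2 (Fabp5 and Apoe), against 5.15%, and in fibroblast-like cells 1 (Lpl), against 9.82%. Pericyte-like cells also had 4 (Cd36, Fabp4, Rbp7 and Pparg), against 8.33%, though each of these came from 5 cells or fewer, and type 2 lymphoid-like cells had 2 (Plin2 and Pparg), against 6.72%. The median fold of the 9 genes was 9.25 in endothelial-like cells, where that of all genes was 1.17, and 1.25 in macrophage-like cells, where that of all genes was 0.590. It was 0.604 against 1.19 in fibroblast-like, 0.179 against 1.09 in mesothelial-like, 1.12 against 0.577 in pericyte-like and 0.130 against 0.502 in type 2 lymphoid-like cells. Plin4, with 11 UMIs, was left out of these counts. The genes were chosen with earlier results of these data known, so an excess over all genes follows in part from that choice. Fibroblast-like and acinar-like cells gave most gated UMIs (19330086 and 11485428), so the folds of other classes are set mainly against these.

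Lipolysis at the vessel wall was divided between fibroblast-like and endothelial-like cells, the enzyme in the first and its anchor in the second. Lpl reached 1603 CPM (1586–1621) in fibroblast-like cells, from 30993 UMIs, and 5082 of the 5527 cells (91.9%) had at least 1. After each cell was thinned to 800 UMIs this share was 68.4%. The level per cell ran from 756 CPM at the lower quartile over a median of 1477 to 2386 at the upper quartile, so Lpl was spread through the class and was not the product of a few cells. Fibroblast-like cells held 96.3% (96.1–96.5) of the Lpl UMIs of gated cells and 85.3% of those of all retained barcodes. Lpl lies at chr8:68880491-68907448 on the plus strand.

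Macrophage-like cells had the next level of Lpl, 821 CPM (658–1011), but it rested on 88 UMIs in 13 cells, and 40 of the 88 came from 1 cell. All 27 macrophage-like barcodes held at least 1 UMI of a fibroblast gate marker, and the 13 barcodes with UMIs of at most 2 such markers had 425 CPM (233–714). Without cells over 2 times the class median of UMIs the macrophage-like level was 345 CPM. The part of fibroblast transcripts in the macrophage-like value was not tested. Pericyte-like cells followed with 366 CPM (217–579), smooth muscle-like cells with 240 CPM (182–311) and type 2 lymphoid-like cells with 109 CPM (54.5–195). The fibroblast-like level exceeded the macrophage-like one 1.95-fold (1.58–2.44), and that exceeded the pericyte-like one 2.24-fold (1.34–3.95). Pericyte-like and smooth muscle-like cells did not differ beyond their interval (1.53-fold, 0.846–2.63), and below type 2 lymphoid-like cells no neighbours in the order did. Classes further apart could differ, as acinar-like over T cell-like cells did (1.78-fold, 1.40–2.31). Endothelial-like cells had 55.0 CPM of Lpl (40.0–73.9), with a background level of 62.8, and red blood cell-like cells 37.5 CPM with a background of 56.9. In the latter 5.72% of cells had a Lpl UMI (2.99% when thinned).

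Gpihbp1 showed the reverse. Endothelial-like cells had 346 CPM (307–390) from 277 UMIs, and 82 of 147 cells (55.8%, thinned 29.3%) had the transcript. None of 402 red blood cell-like cells had it, a limit of 4.33 CPM. The level was 261-fold (193–360) that of the other gated cells together. Macrophage-like cells came next with a single UMI (9.33 CPM, 0.236–52.0), acinar-like cells had 3.22 CPM, fibroblast-like cells 0.466 CPM from 9 UMIs, and 8 classes had none. Endothelial-like cells held 84.7% (80.3–88.4) of the gated UMIs. Gpihbp1 lies at chr15:75596628-75599481 on the plus strand. Enzyme and anchor thus had separate leading classes, and Gpihbp1 in fibroblast-like cells was below its background of 1.38 CPM. The low level of Lpl in endothelial-like cells depended on the gate: it was 86.5 CPM with 1 more gate marker required, 91.6 CPM with barcodes that passed the endothelial and pericyte gates counted in and 127 CPM with every mixed barcode given to its top class.

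Cd36, the surface receptor, had high levels in a phagocyte class and in the vessel class. Macrophage-like cells had 979 CPM (801–1186), with UMIs in 17 of 27 cells (63.0%), and endothelial-like cells 659 CPM (604–718), with UMIs in 99 of 147 (67.3%). The macrophage-like summed level was 1.49-fold (1.19–1.84) higher, although 5 cells held 66.7% of its 105 UMIs. That interval does not cover the spread between cells. The median level per cell had the other order, 470 CPM in macrophage-like and 576 CPM in endothelial-like cells. In the 13 macrophage-like barcodes poorest in fibroblast markers the summed level was 1458 CPM (1075–1933). Thinned to 800 UMIs, the share of cells with Cd36 was 33.3% in macrophage-like and 46.3% in endothelial-like cells. Endothelial-like cells, being more numerous, held 53.4% (50.3–56.6) of the gated Cd36 UMIs and macrophage-like cells 10.6%.

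Lower levels of Cd36 were found in other blood cells. B cell-like cells had 129 CPM (104–159) in 50 of 375 cells, red blood cell-like cells 98.1 CPM (76.2–124) in 42 of 402 cells (10.4%, thinned 7.71%) and dendritic cell-like cells 78.7 CPM (45.8–126). These 3 levels did not differ between neighbours beyond their intervals, with ratios of 1.32 (0.951–1.83) and 1.25 (0.725–2.26), and the background level was 4.74 CPM in red blood cell-like and 4.87 in B cell-like cells. Once cells with a UMI of an endothelial or macrophage gate marker were left out, 71.3 CPM (46.1–105) remained in B cell-like and 97.0 CPM (74.7–124) in red blood cell-like cells. An endothelial gate marker was found in 152 of 375 B cell-like, 280 of 884 T cell-like and 11 of 402 red blood cell-like cells. Whether these marker UMIs came from the cells themselves was not tested, so the lower B cell-like value does not give the origin of its Cd36. T cell-like cells of similar depth had 2.36 CPM and 4 of 884 cells with a UMI (0.452%), below the background of 4.74 CPM. Pericyte-like cells had 285 CPM, but all 14 UMIs came from 3 cells that also had an endothelial gate marker, and the other 23 without one had none. Duct-like, smooth muscle-like, Schwann-like and neutrophil-like cells had no Cd36 UMI, and fibroblast-like cells 2.85 CPM against a background of 4.15. Cd36 lies at chr5:17781690-17888801 on the minus strand.

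The cytosolic carriers Fabp4 and Rbp7 were endothelial. Fabp4 reached 3277 CPM (3152–3404) in endothelial-like cells, with UMIs in 118 of 147 cells (80.3%, thinned 66.7%), against 8 of 402 red blood cell-like cells (1.99%, thinned 0%). The endothelial-like cells were uneven: the lower quartile of the level per cell was 537 CPM, the median 3049 and the upper quartile 7727. Pericyte-like cells had 1018 CPM (756–1342) from 50 UMIs in 5 cells, which fell to 177 CPM (65.1–386) and 1 cell when those with an endothelial gate marker were left out. Smooth muscle-like cells had 168 CPM (120–229) in 16 of 60 cells, and 153 CPM (105–216) after the same step, with a background level of 12.0. Fibroblast-like cells had 34.7 CPM (32.1–37.4) from 671 UMIs in 7.74% of cells, against a background of 17.7. The endothelial-like level was 79.3-fold that of the other gated cells, and the class held 62.7% (61.2–64.2) of the gated UMIs.

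Rbp7 was at 667 CPM (611–726) in endothelial-like cells and in 99 of 147 of them (67.3%, thinned 46.3%), 128-fold the level of the other gated cells. Pericyte-like cells had 346 CPM (202–554) from 17 UMIs in 4 cells, each with an endothelial gate marker, and none in the 23 cells without one. All other classes of 20 or more cells were at or under 21.0 CPM, and red blood cell-like, macrophage-like, neutrophil-like and type 2 lymphoid-like cells had no Rbp7 UMI. In macrophage-like cells that allows up to 28.0 CPM, so the retinol carrier was not detectable at this depth in the class with the highest summed Cd36 level. Fabp4 lies at chr3:10204088-10208576 and Rbp7 at chr4:149449687-149454978, both on the minus strand. The level of the vessel genes depended on the deep barcodes of the class: with at most 10000 UMIs per barcode, the limit of the study's methods, endothelial-like cells had 4986 CPM of Fabp4, 1065 of Rbp7 and 548 of Gpihbp1.

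Fabp5, which lies 187480 bases from Fabp4 on chromosome 3 (chr3:10012548-10016607, plus strand) with 4 coding genes between them, had another distribution. Mesothelial-like cells, the lining of the organ surface, had the highest level, 882 CPM (828–940), with UMIs in 187 of 280 cells (66.8%, thinned 40.7%). Endothelial-like cells came next with 320 CPM (282–362), 2.76-fold (2.40–3.18) lower. Schwann-like cells had 254 CPM (171–363), macrophage-like 159 CPM (92.4–254), acinar-like 119 CPM (113–126) and fibroblast-like 95.9 CPM (91.6–100.4). From endothelial-like down to duct-like cells (82.7 CPM) no neighbours in the order differed beyond their interval. Classes further apart did: endothelial-like cells exceeded macrophage-like cells 2.02-fold (1.24–3.52) and fibroblast-like cells 3.34-fold (2.92–3.81). Duct-like cells had 0.694-fold (0.560–0.852) the acinar-like level. Red blood cell-like cells had 26.0 CPM (15.4–41.1) against a background of 12.4, with UMIs in 4.48% of cells (2.49% when thinned), and neutrophil-like cells none. Acinar-like and duct-like cells aside, the interval of each class with Fabp5 UMIs lay above its background level, which was 10.9 CPM in fibroblast-like cells. Fibroblast-like cells, by their number, held the largest share of its gated UMIs (37.9%).

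Within T cell-like cells Fabp5 was uneven. A cell was called regulatory with UMIs of at least 2 of Foxp3, Il2ra, Ctla4 and Ikzf2, none of Cd4 and not both CD8 markers. Foxp3 itself was not required, and cells with such markers and Cd4 fell in no subset. The 62 regulatory cells had 160 CPM (107–229) from 29 UMIs. The 133 CD8 cells had 43.7 CPM, the 101 CD4 cells 30.9 CPM and the cells of no subset 54.7 CPM. Regulatory cells, all without a Cd4 UMI, exceeded CD4 cells 5.16-fold (2.30–13.1) and CD8 cells 3.65-fold (1.98–6.90). Cd36 had 2 UMIs in the regulatory cells and Rbp7 and Gpihbp1 none.

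The highest levels of Apoe lay in classes other than endothelial-like cells, though the summed level of Cd36 too was highest in macrophage-like cells. Macrophage-like cells had 4393 CPM (4005–4809) in 18 of 27 cells, Schwann-like cells 1956 CPM (1712–2226) in 53 of 61 (86.9%), duct-like cells 1503 CPM (1434–1575) in 43 of 44 and mesothelial-like cells 1474 CPM (1403–1547) in 264 of 280 (94.3%). Duct-like cells had a median of 21184.5 UMIs against 3041.5 in mesothelial-like cells, and 14 of the 44 had fewer than 10000 UMIs. Shares of cells with a UMI are not comparable between classes of such different depth. Macrophage-like cells exceeded Schwann-like cells 2.25-fold (1.91–2.64) and Schwann-like cells exceeded duct-like cells 1.30-fold (1.13–1.49). Duct-like and mesothelial-like cells did not differ beyond their interval (1.02-fold, 0.953–1.09), and mesothelial-like cells exceeded fibroblast-like cells, at 241 CPM (234–248), 6.12-fold (5.78–6.48). Fibroblast-like cells still held the most gated UMIs, 45.8%, and macrophage-like cells 4.64%. T cell-like and red blood cell-like cells, at 24.5 and 21.6 CPM, were at the background level of 24.3, and 3.73% of the latter had a UMI. Apoe lies at chr7:19696109-19699188 on the minus strand.

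The level of Apoe in macrophage-like cells was uneven in the same way as Cd36: 5 cells held 62.6% of its 471 UMIs and 9 cells had none. Without cells that held a UMI of an endothelial or macrophage gate marker, the level was 2106 CPM (1840–2401) in Schwann-like, 1527 CPM (1370–1697) in duct-like and 1636 CPM (1545–1732) in mesothelial-like cells, so these classes kept their Apoe.

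The droplet coat genes had 1126 UMIs of Plin2 and 11 of Plin4 in the retained barcodes. Plin2, which coats droplets in most cells that store lipid, was highest in macrophage-like cells at 233 CPM (151–344), from 25 UMIs in 11 of 27 cells. Type 2 lymphoid-like cells followed with 99.2 CPM (47.6–182), from 10 cells with 1 UMI each, 2.35-fold (1.09–5.49) lower, and mesothelial-like cells had 54.4 CPM (41.5–70.0). Fibroblast-like cells had 29.0 CPM (26.6–31.5; background 1.56) in 9.14% of cells and held 68.9% of the gated UMIs, while red blood cell-like cells had 2 UMIs in 402 cells (0.498%). Plin2 lies at chr4:86648386-86670060 on the minus strand.

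Plin4, the perilipin of fat and muscle cells, had only 11 UMIs in the retained barcodes, with 3 in smooth muscle-like cells, 2 each in acinar-like and duct-like cells, 1 in the adipocyte-like barcode and 3 in mixed barcodes. None was found in 5527 fibroblast-like cells, which allows up to 0.155 CPM. It lies at chr17:56100591-56109803 on the minus strand and overlaps Hdgfl2 on the other strand, which the strand-specific kit keeps apart.

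Pparg was highest in a lymphoid class. Type 2 lymphoid-like cells, gated on Il13, Il5, Il1rl1, Areg and Gata3, had 238 CPM (153–354) from 24 UMIs in 16 of 44 cells (36.4%, thinned 15.9%), and 218 CPM (125–355) in the 34 without endothelial or macrophage gate markers. None of 402 red blood cell-like cells had the transcript. Endothelial-like cells had 55.0 CPM (40.0–73.9) in 31 of 147 cells (21.1%), duct-like cells 17.7 CPM (11.0–27.1) and fibroblast-like cells 6.36 CPM (5.29–7.59, background 0.594) in 1.76% of cells. Pericyte-like (81.4 CPM) and macrophage-like cells (56.0 CPM) rested on 1 and 2 cells, and neither differed from its neighbours beyond its interval except at the limit (type 2 lymphoid-like over pericyte-like 2.92-fold, 1.00–11.6). Endothelial-like cells exceeded duct-like cells 3.11-fold (1.81–5.50), and these exceeded fibroblast-like cells 2.78-fold (1.66–4.45). Pparg lies at chr6:115360951-115490399 on the plus strand.

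**Figure D2:**
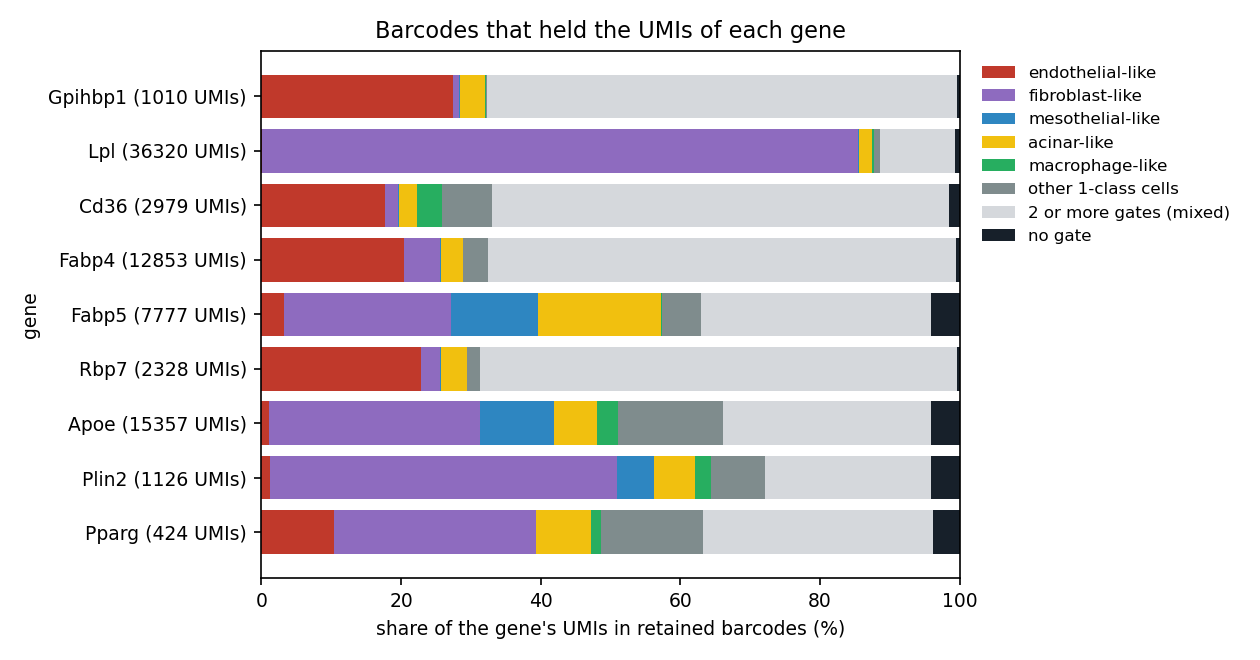
Share (%) of each gene's UMIs in retained barcodes held by each class, by barcodes passing 2 or more gates (light grey) and by barcodes passing none (black), with the UMI total beside each gene. Mixed barcodes hold 65.4% of Cd36, 67.0% of Fabp4, 67.3% of Gpihbp1 and 68.4% of Rbp7, but 10.6% of Lpl.

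The UMIs of the 4 genes high in endothelial-like cells lay mostly in barcodes that the gates had set aside. Mixed barcodes held 65.4% of the Cd36 UMIs, 67.0% of Fabp4, 67.3% of Gpihbp1 and 68.4% of Rbp7, against 10.6% of Lpl and 29.8% of Apoe. Of the 1576 mixed barcodes 312 passed the endothelial gate. Together with the 147 endothelial-like cells they made 459 barcodes, which held 81.5% of Cd36, 85.1% of Fabp4, 94.1% of Gpihbp1 and 89.3% of Rbp7. Among the 312, 125 passed the endothelial and pericyte gates and no other, with a median of 6666 UMIs, more than the 2970 of endothelial-like cells. Their levels were 843 CPM for Cd36, 3739 for Fabp4, 355 for Gpihbp1 and 664 for Rbp7. Cd36 was 1.28-fold (1.15–1.42) and Fabp4 1.14-fold (1.09–1.20) the endothelial-like level, while Gpihbp1 and Rbp7 did not differ beyond their intervals. In all, 242 barcodes passed the endothelial and pericyte gates, some with further gates. They held 57.6% of Cd36, 57.6% of Fabp4, 58.8% of Gpihbp1 and 58.9% of Rbp7 UMIs in retained barcodes. Whether such barcodes held a pair of cells or 1 cell with the markers of both was not tested, and no doublet caller was run. Of the gated UMIs of the 4 genes together, 63.6% (62.4–64.8) lay in endothelial-like cells, and 82.4% when the 125 barcodes were counted with them. Fabp4 gave most of these UMIs, and the shares of single genes in endothelial-like cells ran from 53.4% for Cd36 to 84.7% for Gpihbp1.

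**Figure D3:**
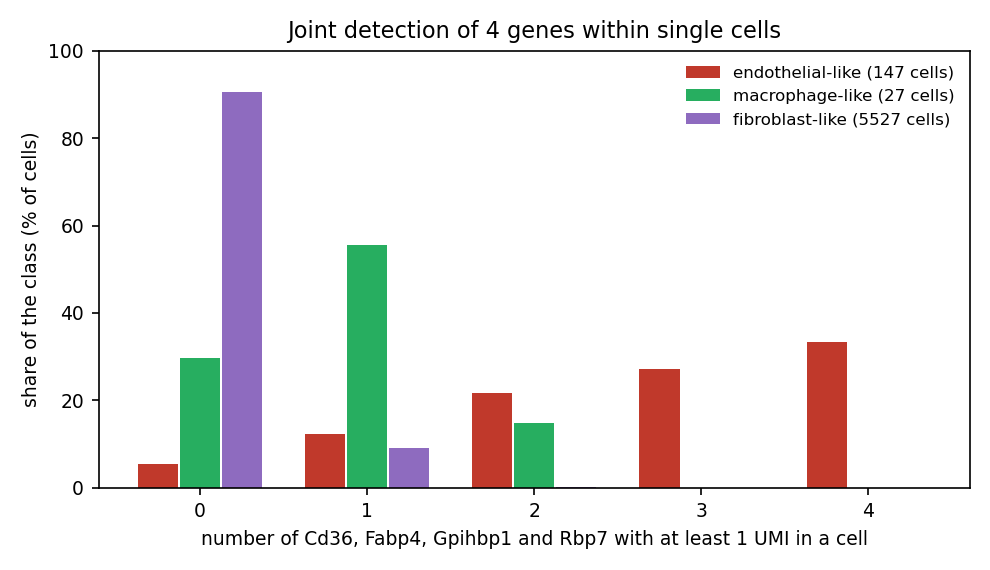
Share (% of cells) of endothelial-like, macrophage-like and fibroblast-like cells by the number of the 4 genes Cd36, Fabp4, Gpihbp1 and Rbp7 with at least 1 UMI. In endothelial-like cells the bars rise from 5.44% with none to 33.3% with all 4, while no macrophage-like or fibroblast-like cell had more than 2. The genes were picked for their level in endothelial-like cells, so the difference between classes follows from that choice.

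Most single endothelial-like cells had UMIs of several of the 4 genes. These genes were picked for their high level in this class, so lower counts in other classes follow from that choice. No product of shares was computed for all 4 together. All 4 were detected in 49 of 147 cells (33.3%), 3 in 40 (27.2%), 2 in 32 (21.8%), 1 in 18 (12.2%) and none in 8 (5.44%). Of 27 macrophage-like cells, 15 had 1 of the genes, 4 had 2 and none had more, and of 5527 fibroblast-like cells 90.5% had none. Cd36 and Fabp4 shared 92 cells (62.6%, 54.2–70.4), where the product of their separate shares gives 79.5 cells, and after thinning 57 cells against 45.3. Deeper cells have more of every gene, and thinning brings all cells to the same UMI total. Whether deep and shallow cells differ in other ways that raise shared detection was not tested. Gpihbp1 and Rbp7 shared 68 cells against a product of 55.2, and 30 against 19.9 after thinning. Of the 31 endothelial-like cells with a Pparg UMI 29 also had Cd36, against a product of 20.9, but after thinning 1 cell had both, against 1.85. In macrophage-like cells Cd36 was found with Apoe in 13 of 27 cells, against 11.3, and with Plin2 in 9, against 6.93. In fibroblast-like cells Lpl and Apoe shared 1573 cells (28.5%), no more than the product of 1589, and after thinning 496 against 540.

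The endothelial genes differed with the number of lymphatic markers. Cells with fewer than 2 of 5 lymphatic markers (132 cells) were compared with the 15 cells that had 2 or more (Lyve1, Prox1, Mmrn1, Flt4, Reln). Fabp4 was at 4682 CPM in the first and 428 in the second, 10.9-fold (9.07–13.3) higher, Cd36 at 897 and 178, 5.04-fold (3.73–6.95), and Gpihbp1 at 456 and 125, 3.65-fold (2.53–5.42). Rbp7 showed the widest gap, 988 against 15.1 CPM from 4 UMIs, 65.3-fold (25.3–240). Lpl was at 41.1 and 83.3 CPM (0.493-fold, 0.261–0.934), near its background level in the class, and this ratio turned to 1.20 with the 125 barcodes that also passed the pericyte gate. Pparg was at 56.0 and 53.0 CPM. The 15 cells had a median of 9894 UMIs against 2445 for the others, and deeper barcodes pass a limit of 2 markers more easily. Only 3 of the 15 had fewer than 2 markers of every other vessel type. Those 3 cells held 3 UMIs of Fabp4 and none of Cd36, Gpihbp1 or Rbp7. The rest also had 2 or more markers of capillary, artery or vein. With the 125 barcodes counted in, the ratio for Rbp7 was 4.51. That of the 4 genes summed, mostly UMIs of Fabp4, was 3.22 in place of 9.42 (8.16–10.9). The ratio for Fabp4 was 1.60 without cells over 2 times the class median of UMIs, 2.74 with mixed barcodes given to their top class and 3.40 with at most 10000 UMIs per barcode. Under the same limit of 10000 the ratio for Cd36 was 10.5 and that for Gpihbp1 1.84, and with mixed barcodes given to their top class 2.30 and 1.66, so the size of these differences, unlike their direction, depended on which barcodes were counted.

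The capillary, artery and vein markers split the blood vessel cells further. With those 125 barcodes included, 81 cells were assigned to capillary, 18 to artery and 15 to vein. Most, 155, were assigned to no vessel type, with a median of 6537 UMIs. Gpihbp1 was at 645 CPM in capillary, 102 in artery and 160 in vein cells, 6.31-fold (2.86–17.4) and 4.03-fold (2.31–7.68) higher in the capillary. Rbp7 had its highest level in artery cells, 1652 CPM, then 915 in capillary and 284 in vein cells, with artery over vein at 5.83-fold (3.67–9.62). Fabp4 was at 4336, 3220 and 5301 CPM in capillary, artery and vein cells, and Cd36 at 768, 1141 and 777 CPM. The lipase anchor was thus highest in capillary cells, and the retinol carrier in artery cells, where it exceeded the capillary level 1.81-fold (1.42–2.27). Among endothelial-like cells alone, 51 capillary cells had 745 CPM of Gpihbp1, 5171 of Fabp4, 1173 of Rbp7 and 954 of Cd36. Here 9 artery cells had 191, 2670, 1812 and 1287 CPM of these genes. The 7 vein cells had 283, 4288 and 518 CPM of Gpihbp1, Fabp4 and Cd36, and no Rbp7 UMI. The order of capillary and vein cells for Fabp4 and Cd36 thus depended on the 125 barcodes. Without those barcodes, Gpihbp1 rested on 4 UMIs in 3 artery cells (52.0–488 CPM) and on 6 UMIs in 1 vein cell (104–615 CPM).

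**Figure D4:**
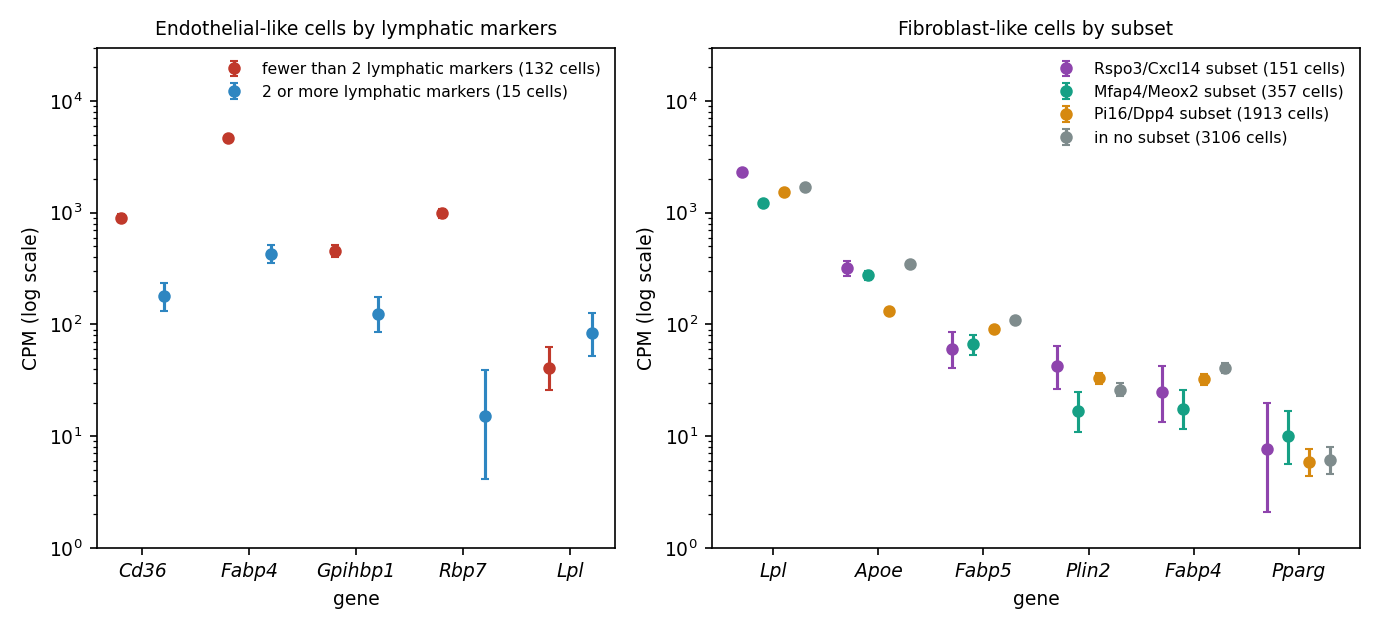
Level in CPM (log scale, points with 95% Poisson intervals) of 5 genes in endothelial-like cells with and without lymphatic markers (left) and of 6 genes in the fibroblast-like subsets (right). Fabp4, Cd36, Gpihbp1 and Rbp7 lie lower in the 15 cells with 2 or more lymphatic markers, and Lpl spans 1227 to 2321 CPM over the 3 named fibroblast-like subsets. Of those 15 cells, 3 had fewer than 2 markers of every other vessel type.

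Lpl was high in every fibroblast-like subset but not equally. Cells with Rspo3 and Cxcl14 (151 cells) had 2321 CPM (2192–2456), cells with Pi16, Pcolce2, Dpp4 and Sema3c markers (1913 cells) 1535 CPM (1510–1561), cells with Mfap4 and Meox2 (357 cells) 1227 CPM (1171–1284), and the 3106 cells of no subset 1696 CPM. The Rspo3 and Cxcl14 cells exceeded the Mfap4 and Meox2 cells 1.89-fold (1.76–2.04) and the Pi16 and Dpp4 cells 1.51-fold (1.42–1.60). Apoe was lowest in the Pi16 and Dpp4 cells, 131 CPM, against 320 in the Rspo3 and Cxcl14 cells (2.44-fold, 2.06–2.87) and 275 in the Mfap4 and Meox2 cells (2.09-fold, 1.86–2.34). Plin2 was lowest in the Mfap4 and Meox2 cells, 16.9 CPM, against 33.1 in the Pi16 and Dpp4 cells (1.96-fold, 1.30–3.08). Pparg was between 5.87 and 10.1 CPM, and no pair of subsets differed beyond its interval.

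A fat cell signature was carried by 1 barcode. It had 7742 UMIs and passed the gate of Adipoq, Plin1, Cidec, Cidea, Lep and Adrb3, with 7 UMIs of Adipoq, the adipocyte hormone adiponectin, 8 of Plin1 and 15 of Cidec. Of the 10 genes it held 274 UMIs of Fabp4, 48 of Lpl, 38 of Fabp5, 30 of Apoe, 20 of Cd36, 3 of Pparg and 1 of Plin4, and none of Gpihbp1, Rbp7 or Plin2. It also held 225 UMIs of Scd1, a fatty acid desaturase, and 98 of Car3. Across all retained barcodes Adipoq had 12 UMIs in 6 barcodes, and the 5527 fibroblast-like cells had 1. A single barcode gives no level for a cell type.

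Among 72 further genes of lipid handling, taken as lists by role, 49 had at least 20 UMIs in gated cells and 15 had a class whose level exceeded the next beyond its interval. None of 6 genes that regulate lipolysis at the vessel wall had such a class, and Angptl4, an inhibitor of lipoprotein lipase, was at 27.3 CPM in fibroblast-like cells. Of 10 uptake and activation genes 3 had one: Cav1, the caveolar coat protein, at 2120 CPM in mesothelial-like cells over 1116 in endothelial-like cells, Cavin1 at 1175 CPM in mesothelial-like cells, and Acsl3 at 37.1 CPM in duct-like cells. Of 3 other fatty acid binding proteins 2 had one, Fabp7 at 1872 CPM in Schwann-like cells over 28.0 in the next class and Fabp3 at 47.2 CPM in mesothelial-like cells. Together with Fabp4 and Fabp5, 4 members of this family thus had a leading class beyond its interval, endothelial-like for Fabp4, Schwann-like for Fabp7 and mesothelial-like for Fabp3 and Fabp5.

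Of 7 apolipoproteins and receptors 4 had a leading class. Apoc1, encoded beside Apoe, was at 132 CPM in duct-like cells, Lrp1, a receptor for Apoe-bearing particles, at 455 CPM in fibroblast-like cells, Scarb1, the HDL receptor, at 323 CPM in endothelial-like cells over 61.1 in the next class, and Vldlr at 108 CPM in mesothelial-like cells. Of 9 droplet and lipase genes 3 had one: G0s2, an inhibitor of the triglyceride lipase ATGL, at 1412 CPM in neutrophil-like cells, Hilpda, another inhibitor of it, at 565 CPM in type 2 lymphoid-like cells over 28.7 in the next class, and Mgll, the monoglyceride lipase, at 378 CPM in endothelial-like cells over 169. Type 2 lymphoid-like cells were therefore the class with the highest level of both Pparg and Hilpda. Of 11 regulators 3 had one, Cebpa at 65.3 and Cebpb at 1157 CPM in macrophage-like cells and Zfp423 at 169 CPM in endothelial-like cells. Meox2 and Tcf15, transcription factors of the capillary endothelium of heart and muscle, were at 55.0 and 58.8 CPM in endothelial-like cells. Meox2 was also at 61.1 CPM in pericyte-like cells, from 3 UMIs, and at 50.6 CPM in fibroblast-like cells. The latter held 978 of its 1048 gated UMIs. Tcf15 was at 0.414 CPM in fibroblast-like cells. Neither gene had a leading class beyond its interval. Of the 3 retinoid carriers none had one.

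**Figure D5:**
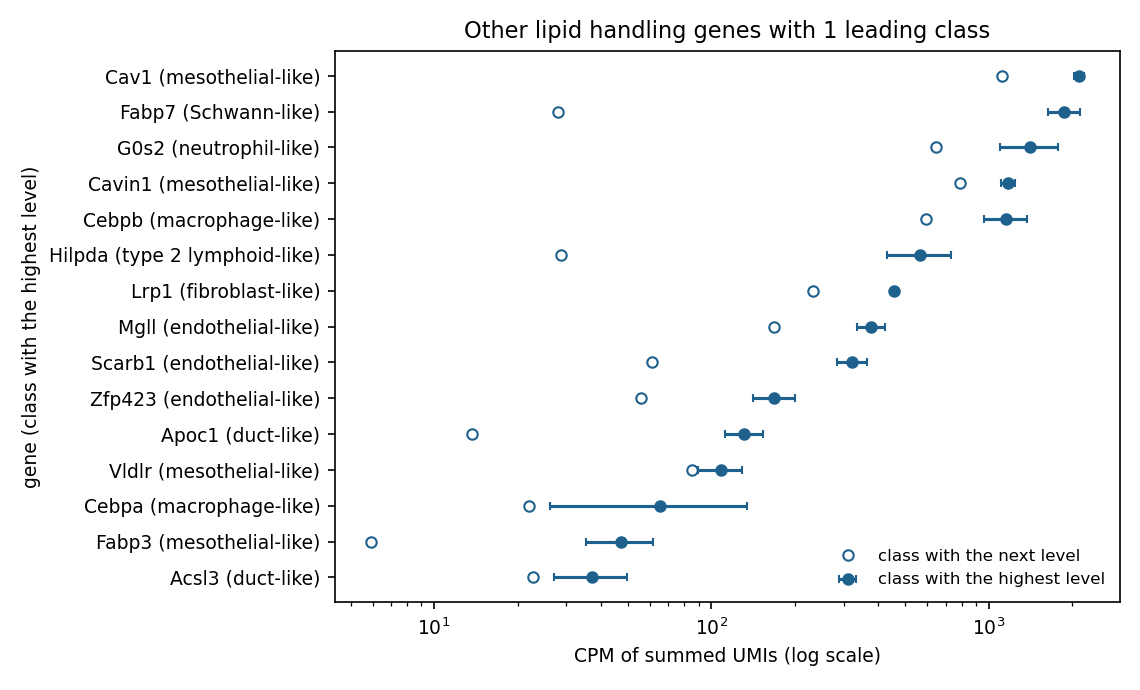
Level in CPM (log scale) of the 15 listed genes with 1 leading class, in that class (filled points with 95% Poisson intervals) and in the class with the next level (open points). Fabp7 in Schwann-like cells (1872 over 28.0 CPM) and Hilpda in type 2 lymphoid-like cells (565 over 28.7 CPM) have the highest ratios to the next class.

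Over the 15 classes, the genes whose pattern was most like each member were found by Pearson correlation of log2(CPM + 10) among 12830 genes, as a description only, since the classes share 1 library, its depth and its free RNA. Gpihbp1 was most like Klhl4 (0.997), Robo4 (0.982) and Meox1 (0.982), Rbp7 like Sox17 (0.986), Adcy4 (0.978) and Dysf (0.977), and Fabp4 like Flt1 (0.975), Apold1 (0.939) and Dysf (0.936). Flt1 and Robo4 are endothelial receptors and Sox17 a transcription factor of arterial endothelium. Lpl was most like Il6 (0.953), and Cd36 like Fgd6 (0.882), Fam43a (0.811) and Stab1 (0.808), the last a scavenger receptor shared by endothelium and macrophages. Fabp5 was most like Exoc6b (0.860), Apoe like Pcyox1 (0.894), Plin2 like Casp4 (0.874) and Pparg like Pigl (0.840), and Plin4 had too few UMIs. Among the members, Fabp4 and Rbp7 reached 0.920, Fabp4 and Gpihbp1 0.710, Fabp5 and Apoe 0.663, and Lpl and Gpihbp1 -0.03.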

How the data were processed

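The deposited matrix holds UMI counts per gene and barcode, which the authors made with Cell Ranger 7.1.0 on mm10, per the submitters' processing notes. The values are whole numbers from 500 UMIs per barcode, so the UMI limits of the study's methods had not been applied to them. The values alone do not show whether its removal of free RNA had been applied. Pancreata were digested with Collagenase P and dead cells were removed. Cell classes were assigned by marker gates (2 or more gate markers and 8 gate UMIs per 10000, more for acinar-like, duct-like, fibroblast-like and red blood cell-like cells), and barcodes that passed 2 or more gates were left out. The methods set an upper limit of 10000 UMIs, where 100000 was used here. Under the limit of the methods 10129 barcodes are kept, and the higher limit adds 818. Levels are CPM of summed UMIs with exact 95% Poisson intervals, shares have exact Clopper-Pearson intervals and ratios exact conditional intervals, and neighbours in an order are said not to differ where the interval of their ratio includes 1. A count of 0 is given as the level of 3 UMIs. With 1 library there is no replicate, no test and no p-value. Positions are those of GENCODE vM21 on GRCm38, and levels of different genes were not compared, since 3′ tags differ in yield. Promoter windows were found for 6 of the 10 genes. Fabp4, Fabp5, Lpl and Gpihbp1 were without one.

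The 10 members and the lists were chosen with earlier results of these data known. Gate limits were set after the cells had been seen, as were the set passing the endothelial and pericyte gates, the exclusion of cells with endothelial or macrophage markers and the macrophage-like subset. All members were named, other genes only from the lists and at 20 UMIs or more, and the 3 genes most like each member by the rule above, of which the text gives 1 to 3. Genes of the adipocyte-like barcode outside its gate were named after their values were seen. Scripts were tested on simulated data and ran on Python 3.11.15 with pandas 2.3.3, scipy 1.17.1 and numpy 2.4.6. The other library of the design was not analysed here. The values of 1 listed gene are not reported here.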

Additional observations from a re-analysis of the deposited data

How the results depend on the processing

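No paired analysis was possible because there is 1 library. The 11 alternatives were at most 10000 UMIs, at least 1500 UMIs, at most 5% mitochondrial UMIs, 1 more gate marker, mixed barcodes given to their top class, enzyme UMIs left out of the total, each cell weighing the same, the library profile subtracted, cells over 2 times the class median left out, and 2 added after the data were seen. Of 539 values of single genes under an alternative, 484 stayed within 1.5 times, or 478 of 520 when values of detection were left out. Of the 539, 363 lay inside the interval of the main value, 173 lay outside it and 3 changed direction. The printed intervals therefore do not cover the choice of processing. The 3 that changed direction were the ratio of Lpl between vessel cells with few and with 2 or more lymphatic markers, 0.493. It became 1.04 with 1 more gate marker and 1.504 with mixed barcodes given to their top class. With barcodes passing the endothelial and pericyte gates counted as endothelial-like it became 1.20. The class with the highest level was kept for 9 of 9 genes under every alternative except mixed barcodes given to their top class, where it was kept for 8 and Rbp7 became highest in pericyte-like cells.

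The share of the gated UMIs of Cd36, Fabp4, Gpihbp1 and Rbp7 in endothelial-like cells, 63.6%, became 67.1% under the limit of 10000 UMIs, 66.9% under the mitochondrial limit of 5%, 66.8% with 1 more marker, 58.6% with mixed barcodes given to their top class, 70.2% with the library profile subtracted and 82.4% with barcodes passing the endothelial and pericyte gates counted as endothelial-like. The summed ratio of the 4 genes between vessel cells with few and with 2 or more lymphatic markers, 9.42, became 4.07, 2.65 (mixed to top class), 6.32 (mean over cells), 2.26 (deep cells left out) and 3.22 (pericyte barcodes added). Fabp4 gave most of the UMIs behind both the share and the summed ratio. The cause of these changes was not tested. The ratio of Lpl between the Rspo3 and Cxcl14 and the Pi16 and Dpp4 cells, 1.51, became 1.40 as a mean over cells and 1.37 without deep cells.

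Genes past the fold limit in endothelial-like cells, 982 in all, were 435 at 8-fold and 1878 with no minimum of UMIs. In fibroblast-like cells 1506 became 756 and 3310, in macrophage-like cells 1218 became 500 at 8-fold, and in mesothelial-like cells 790 became 346 and 1648, where 1 member in place of 2 passed at 8-fold. In pericyte-like cells 1277 became 524 at 8-fold, and in type 2 lymphoid-like cells 1030 became 402, where 1 member in place of 2 passed. Thinning took the share of cells with Fabp4 from 80.3% to 66.7% in endothelial-like cells and with Lpl from 91.9% to 68.4% in fibroblast-like cells. Without deep cells Lpl in macrophage-like cells was 345 CPM. Macrophage-like, pericyte-like and type 2 lymphoid-like cells numbered 27, 30 and 44, which limits the levels given for them.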
